A study of Mus musculus with 8 samples.

Results

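House dust mite (HDM) allergen sets off an allergic, type 2 inflammation of the airways when it is given to mice. The question here is how far the response of sorted lung epithelial cells to HDM differed between mice with and without a conditional deletion of STAT3, as measured by RNA-seq. The quantity described is the interaction of genotype and treatment, meaning the HDM response in the conditional knockout minus the HDM response in the wild type, on the log2(normalized count + 1) scale. A negative interaction means that HDM raised a gene less, or lowered it more, in the knockout. All 8 of the 8 libraries of the study enter it, and 7512 of the 25124 genes in the deposited table were tested, namely every gene whose normalized counts averaged 10 or more across the 8 libraries. At that threshold, G6pdx had a mean of 10.0017 and was tested, and Orc2 had a mean of 9.99946 and was not.

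The cells were airway epithelial cells isolated from the lungs of C57BL/6 mice by flow cytometry. The 4 groups were STAT3-WT given phosphate-buffered saline (WT PBS), STAT3-WT given HDM (WT HDM), STAT3-cKO given PBS (cKO PBS) and STAT3-cKO given HDM (cKO HDM), with 2 libraries each. Not given in the sources used here are the cell type in which STAT3 was deleted, the Cre driver, the deleted exons, the HDM schedule, and the age and sex of the animals. Whether the 2 libraries within each group came from different animals is not stated in the labels. The p-values therefore reflect only library-to-library spread, part of which may be technical.

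STAT3 is a transcription factor that is phosphorylated by Janus kinases when cytokines of the IL-6 family, or others such as IL-22, bind their receptors. It then forms dimers, enters the nucleus and binds DNA at sites of the general form TTCNNNGAA. Among its well known targets are Socs3, which feeds back on the pathway, and Pim1, a serine/threonine kinase. In the lung epithelium STAT3 is known for roles in repair, in surfactant lipid synthesis by alveolar type 2 cells and in the differentiation of ciliated cells. HDM also acts through IL-4, IL-13 and STAT6, a separate route that drives mucous genes.

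The libraries held 232556 to 593200 reads each. The first principal component of the log2 values carried 30.8% of the variance. The cKO PBS replicate 1 library lay at 93.7 on it and the WT HDM replicate 2 library at -63.4, while the other 6 lay between -26.3 and 8.05. On the second, with 22.2% of the variance, WT HDM replicate 2 lay at 62.2, cKO PBS replicate 1 at 46.7 and cKO PBS replicate 2 at -50.7. All other libraries lay between -18.2 and 8.73 on the second. Values without WT HDM replicate 2 or without 1 of the cKO PBS libraries are given for some gene lists and single genes. Epcam, an adhesion molecule of epithelia, had normalized counts of 123 and 179 in WT PBS, 114 and 153 in WT HDM, 133 and 151 in cKO PBS, and 127 and 99.7 in cKO HDM, so that this marker was present in every library. Ptprc, the leukocyte marker CD45, had normalized counts of 0 and 3.64 in WT PBS, 12.4 and 37.4 in WT HDM, 0 and 0 in cKO PBS, and 0 and 0 in cKO HDM. Its reads were thus mostly in WT HDM. Siglecf and Prg2 (eosinophils) and Krt14 (basal cells) were at 0 reads in all 8 libraries. Other basal cell and granulocyte markers did have reads. Krt5 reached 12.7 normalized counts in cKO PBS replicate 2 and Trp63 reached 14.6 in cKO PBS replicate 1 (basal cells). The granulocyte markers S100a8 and S100a9 reached 20.6 and 55.4, both in WT HDM replicate 2.

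Stat3, the targeted gene, had normalized counts of 75.8 and 40.9 in WT PBS, 134 and 157 in WT HDM, 56.9 and 96.5 in cKO PBS, and 76.9 and 92.2 in cKO HDM. All 4 cKO libraries lay between the lowest WT PBS and the lowest WT HDM library, and only the WT HDM libraries stood above the rest. These are counts over the whole gene and the deleted exons are not known, so they do not check the deletion. The interaction of Stat3 was -1.18 ± 0.55 with an unadjusted p of 0.0488 in limma, and its adjusted p was 0.638.

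Promoter sequences of 4 genes are printed because they show, for genes that lead the results or are known STAT3 targets, whether the letters of the STAT site stand near the start. Each window holds the 250 bases before an annotated start, from RefSeq on GRCm38.p6, and capitals mark a match to TTCNNNGAA, which reads the same on both strands. The window of Hc is chr2:35061413-35061662 on the minus strand, that of Cxcl15 is chr5:90794284-90794533 on the plus strand, the 1 of the 3 windows of Mme that holds a match is chr3:63294961-63295210 on the plus strand and that of Icam1 is chr9:21015690-21015939 on the plus strand.
Hc: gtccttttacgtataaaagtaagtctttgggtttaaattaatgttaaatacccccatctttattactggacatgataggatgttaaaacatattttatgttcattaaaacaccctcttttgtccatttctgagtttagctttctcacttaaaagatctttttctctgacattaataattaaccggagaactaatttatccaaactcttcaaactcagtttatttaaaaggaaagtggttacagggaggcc
Cxcl15: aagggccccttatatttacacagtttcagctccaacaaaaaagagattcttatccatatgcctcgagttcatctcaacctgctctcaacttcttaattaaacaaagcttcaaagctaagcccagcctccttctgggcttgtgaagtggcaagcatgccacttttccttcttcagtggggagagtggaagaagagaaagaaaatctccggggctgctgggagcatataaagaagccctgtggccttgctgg
Mme: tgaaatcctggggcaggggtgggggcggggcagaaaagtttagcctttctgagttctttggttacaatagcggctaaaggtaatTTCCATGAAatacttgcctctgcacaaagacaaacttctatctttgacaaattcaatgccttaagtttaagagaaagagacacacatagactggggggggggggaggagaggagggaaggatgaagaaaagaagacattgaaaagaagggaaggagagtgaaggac
Icam1: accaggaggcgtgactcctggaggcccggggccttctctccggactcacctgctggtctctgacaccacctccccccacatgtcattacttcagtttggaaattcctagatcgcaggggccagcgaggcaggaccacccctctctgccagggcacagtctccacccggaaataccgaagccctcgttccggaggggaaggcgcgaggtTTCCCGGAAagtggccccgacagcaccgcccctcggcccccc
The match in Mme began 166 bases before the start and that in Icam1 42 bases before it, and the windows of Hc and Cxcl15 held none. No match stood in the other 2 windows of Mme or in the 2 windows of Pim1, a leading gene and a known target. The windows of Col3a1 and Fasn held none either, and no window was available for Scd1. In the window of Socs3, a match began 154 bases before the start. Of the 10 negative genes of smallest p, 9 had a window, and 1 of these (11.1%), Mme, held a match. Of the 32851 windows in the table, 7.02% held a match. Counted by gene, 6.59% of 5965 tested genes with a window had one, as did 20 of 206 genes (9.71%) with a negative interaction at an unadjusted p under 0.05 and 23 of 258 (8.91%) with a positive one. Among tested genes on a list of known STAT3 targets it was 4 of 24 (16.7%). A match is a description of letters and not a binding site.

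In the interaction test, 2 genes passed at an adjusted p under 0.05 in limma, Scd1 and Hc, both with a negative interaction. They make up 0.0266% of the 7512 genes tested. No gene passed with a positive interaction (0%), and 324 had a positive interaction at an unadjusted p under 0.05 (4.31%) against 260 with a negative one (3.46%). On the recovered reads, edgeR's quasi-likelihood test called 7 genes negative (0.0932%) and 0 positive, while DESeq2 called 26 negative (0.346%) and 1 positive (0.0133%). Both genes that passed are expressed by alveolar type 2 cells.

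Scd1 encodes stearoyl-CoA desaturase 1, which makes monounsaturated fatty acids, and is a protein-coding gene at chr19:44394450-44407709 (RefSeq annotation of GRCm38, the assembly also called mm10). It had normalized counts of 599 and 670.2 in WT PBS, 2243 and 2569 in WT HDM, 293 and 481 in cKO PBS, and 194 and 243 in cKO HDM. The WT HDM libraries were the highest of the 8 and the cKO HDM libraries the lowest, and the values of the 4 groups did not overlap. Group means were 634 ± 50.6 in WT PBS, 2406 ± 231 in WT HDM, 387 ± 133 in cKO PBS and 219 ± 35.1 in cKO HDM (SD, n = 2). HDM thus came with 3.79-fold higher Scd1 in the wild type and 1.77-fold lower Scd1 in the knockout, as ratios of means. The interaction was -2.71 ± 0.35 log2 units (95% interval -3.45 to -1.97; limma adjusted p = 0.00828), made up of 1.92 in WT and -0.79 in cKO. The call was lost in limma without any 1 of 5 libraries (either WT HDM, either WT PBS, or cKO HDM replicate 1), with adjusted p of 0.0824 to 0.324 and interactions of -2.81 to -2.54. Scd2 is a close paralog, and how reads shared by such genes were counted is not stated.

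Hc encodes complement component C5 and lies at chr2:34983329-35068506. It had normalized counts of 88.8 and 149 in WT PBS, 701 and 565 in WT HDM, 133 and 112 in cKO PBS, and 106 and 88.9 in cKO HDM. Only WT HDM stood apart, at means of 119 ± 42.7, 633 ± 96.4, 123 ± 15.3 and 97.4 ± 12.1 for WT PBS, WT HDM, cKO PBS and cKO HDM (SD, n = 2). This is a 5.32-fold higher mean with HDM in the wild type, against a 1.26-fold lower one in the knockout. The interaction was -2.77 ± 0.43 (95% interval -3.68 to -1.85; limma adjusted p = 0.0386). For Hc the call was lost without any 1 of 6 libraries, those 5 and cKO HDM replicate 2, with adjusted p in limma of 0.0824 to 0.650 and interactions of -3.14 to -2.40. Without WT HDM replicate 2, which stood apart, both genes had an adjusted p of 0.257 in limma. Over all 8 libraries left out in turn, cKO PBS replicates 1 and 2 among them, the interaction of Scd1 lay between -3.07 and -2.35.

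Marker genes of other cell types were also highest in the WT HDM libraries. Listed endothelial genes took 0.442% to 0.461% of reads there, fibroblast and smooth muscle genes 0.545% to 0.563%, macrophage and dendritic genes 0.398% to 0.721% and red cell genes 0.0597% to 0.104%. In the other 6 libraries these shares were 0.0818% to 0.118%, 0.0185% to 0.0617%, 0.116% to 0.213% and 0.000881% to 0.00973%. Most of the macrophage and dendritic share came from Lyz2, which alveolar type 2 cells also make. In WT HDM, Lyz2 had 1112 and 1858 of the 1541 and 2955 summed normalized counts of that list. The part of these marker genes in the results for Scd1, Hc and the gene lists was not tested.

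**Figure D1:**
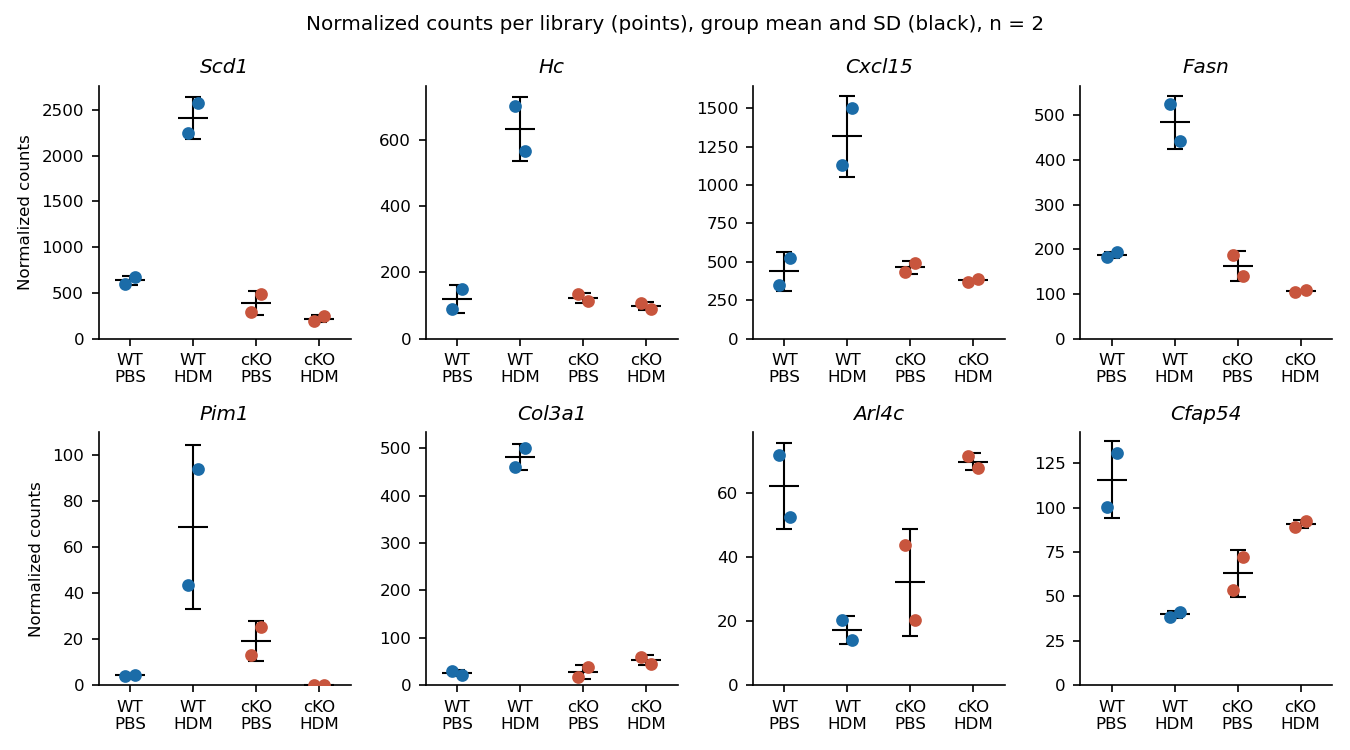
Normalized counts (y axis, linear from 0) in each of the 8 libraries for 8 genes, with points for libraries and black lines for the group mean and SD (n = 2). WT HDM is the highest group for Scd1, Hc, Cxcl15, Fasn, Pim1 and Col3a1 and the lowest for Arl4c and Cfap54.

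Of the 8 genes next in order of p with a negative interaction, none passed in limma. Cxcl15, a chemokine of lung epithelium (lungkine), had 347 and 527 in WT PBS, 1131 and 1503 in WT HDM, 434 and 494 in cKO PBS, and 370.1 and 385 in cKO HDM. Its WT HDM libraries were above all 6 others, and the interaction was -1.90 ± 0.34 (adjusted p = 0.122 in limma, 0.0513 in edgeR and 2.81e-05 in DESeq2). With the replicate number as a block, the adjusted p of Cxcl15 in limma was 0.0389. Fasn, the fatty acid synthase that works upstream of Scd1, had 183 and 193 in WT PBS, 526 and 442 in WT HDM, 187 and 139.7 in cKO PBS, and 105 and 109 in cKO HDM. WT HDM was again the highest group and cKO HDM the lowest, and the interaction of Fasn was -1.95 ± 0.37 (adjusted p = 0.14 in limma). Sftpb, which encodes surfactant protein B, had 766 and 778 in WT PBS, 1069 and 1734 in WT HDM, 909 and 907 in cKO PBS, and 486 and 589 in cKO HDM, with no overlap between cKO HDM and any other group. Its interaction was -1.58 ± 0.32 (adjusted p = 0.155 in limma). Mme, the membrane metallo-endopeptidase neprilysin, had 21.4 and 56.4 in WT PBS, 109.6 and 103 in WT HDM, 68.3 and 58.4 in cKO PBS, and 17.4 and 7.48 in cKO HDM. Its interaction was -3.94 ± 0.76, and cKO HDM was the lowest group (adjusted p = 0.14 in limma).

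Pim1 had 5 and 5 reads in WT PBS, 67 and 73 in WT HDM, 8 and 20 in cKO PBS, and 0 and 0 in cKO HDM. In normalized counts this was 3.83 and 4.55 in WT PBS, 43.7 and 94.1 in WT HDM, 13 and 25.4 in cKO PBS, and 0 and 0 in cKO HDM. Against the floor of 3 reads per library, taken as a group mean, its level in cKO HDM was at least 8.23-fold lower than in cKO PBS. It passed in edgeR (adjusted p = 0.0115) and not in limma (adjusted p = 0.155). Col3a1 (a fibrillar collagen), Bgn (the matrix proteoglycan biglycan) and Hba-a1 (an alpha globin) are genes of other cell types and are described with those below.

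On the positive side, the 9 genes of smallest p did not pass in limma, with adjusted p from 0.33 to 0.403. Arl4c, a small GTPase of the ARF-like family, had 72 and 52.7 in WT PBS, 20.2 and 14.2 in WT HDM, 43.9 and 20.3 in cKO PBS, and 71.8 and 68.1 in cKO HDM. The WT HDM libraries were the lowest, and the cKO PBS libraries lay between them and the other groups. Its interaction was 3.0 ± 0.71, with a 3.63-fold lower mean with HDM in WT and a 2.18-fold higher one in cKO. Dynll1, a light chain of dynein motors, had 85 and 63.7 in WT PBS, 38.5 and 34.8 in WT HDM, 29.3 and 30.5 in cKO PBS, and 71.1 and 87.2 in cKO HDM, and both WT HDM and cKO PBS were low. Cd2ap, an adaptor that ties membrane proteins to actin, had 52.1 and 65.5 in WT PBS, 24.1 and 24.5 in WT HDM, 26 and 16.5 in cKO PBS, and 62.4 and 61.5 in cKO HDM, with WT HDM and cKO PBS low here too. Cfap54, a protein of the central apparatus of motile cilia, had 100.3 and 131 in WT PBS, 38.5 and 41.3 in WT HDM, 53.7 and 72.4 in cKO PBS, and 89.3 and 92.2 in cKO HDM, with the WT HDM libraries below all others. The remaining 5 genes (Smpdl3a, Hs6st2, Cdc14a, Zfp474 and Fsd1l) had interactions of 1.89 to 2.78. Pik3ip1, an inhibitor of PI3-kinase, was the positive call of DESeq2 (adjusted p = 0.0445), with 16.8 and 37.3 in WT PBS, 0 and 0 in WT HDM, 14.6 and 15.2 in cKO PBS, and 18.1 and 15 in cKO HDM. Its mean in WT HDM was at least 9.29-fold lower than in WT PBS, by the same floor of 3 reads.

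The contrast is negative where WT HDM or cKO PBS is high or where WT PBS or cKO HDM is low, so counts by group among genes chosen on it describe those genes and test nothing. Among the 260 genes with a negative interaction at an unadjusted p under 0.05, 193 were highest in WT HDM and 67 in cKO PBS, while 137 were lowest in cKO HDM and 108 in WT PBS. Among the 324 with a positive interaction, 168 were lowest in WT HDM and 156 in cKO PBS, while 183 were highest in cKO HDM and 126 in WT PBS. All 4 differences between cKO HDM and cKO PBS libraries lay below all 4 WT differences for 783 genes (10.4%) and above them for 931 (12.4%).

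**Figure D2:**
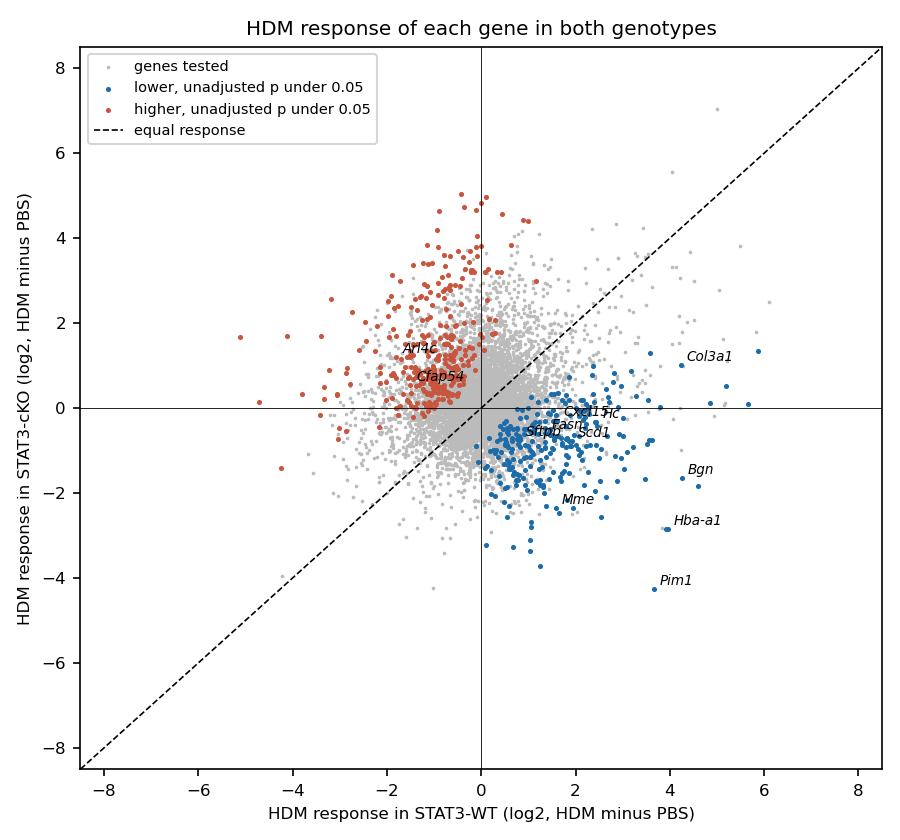
HDM response of every tested gene in STAT3-WT (x axis) and STAT3-cKO (y axis), in log2 units, with genes at an unadjusted interaction p under 0.05 in colour and the line of equal response dashed. Colour marks distance from the line, so it falls mostly where the responses have opposite signs: 221 of 260 coloured negative genes were above 0 in WT and below 0 in cKO (1611 of all 7512), and 295 of 324 positive ones were the reverse (2136 of all). Scd1 and Hc lie below the line.

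Genes listed for alveolar type 2 cells, the cells that make surfactant, had negative interactions. Among lists with at least 5 tested genes, lower medians were found for MHC class II (-3.66), fibroblast and smooth muscle (-2.51), endothelial (-2.19), and macrophage and dendritic genes (-1.96). Of 28 alveolar type 2 genes listed, 27 were tested, and all 27 had a negative interaction, against 44.0% of all tested genes. In limma, 2 passed and 22 had an unadjusted p under 0.05, where the share over all genes was 3.46%. The median interaction was -1.58 (0.16 over all tested genes), from a median response of 1.54 in WT and -0.26 in cKO. Slc34a2, a phosphate transporter of these cells, had 502 and 836 in WT PBS, 1924 and 2546 in WT HDM, 356 and 598 in cKO PBS, and 496 and 499 in cKO HDM, with an interaction of -1.66 ± 0.39. Lpcat1, an acyltransferase of surfactant lipid, had 146 and 142 in WT PBS, 383 and 357 in WT HDM, 79.7 and 85.1 in cKO PBS, and 37.7 and 91.4 in cKO HDM, with an interaction of -1.83 ± 0.51. In both, WT HDM was above every other library. Sftpc, surfactant protein C and the defining gene of the cell type, had 765 and 1289 in WT PBS, 1519 and 2878 in WT HDM, 981 and 1209 in cKO PBS, and 856 and 801 in cKO HDM; its interaction was -1.47 ± 0.40. Chil1, a chitinase-like protein, went from 237 and 284 to 1171 and 1544 in WT and from 228 and 289.5 to 506 and 523 in cKO, with an interaction of -1.37 ± 0.33. Nkx2-1, a lung lineage transcription factor, went from 98.7 and 106 to 108 and 102 in WT and from 143 and 133 to 73.3 and 109.6 in cKO, with an interaction of -0.65 ± 0.45 that did not reach an unadjusted p of 0.05 in limma. The listed genes took 4.47% to 5.74% of all reads in WT HDM and 1.78% to 2.28% in the other 6 libraries. In bulk samples, fewer cells of a type and less RNA per cell cannot be told apart, and the share of alveolar type 2 cells in each sort was not measured. Without WT HDM replicate 2 the median was -1.39 with 18 of 27 at an unadjusted p under 0.05, and without cKO PBS replicate 1 it was -1.74 with 21 of 27. With cKO PBS replicate 2 left out, the median was -1.46 and 26 of the 27 were negative. Since 6 of the 27 stand on another list as well, the remaining 21 were also summarised, and their median was -1.49.

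Fatty acid synthesis genes share Scd1, Fasn, Lpcat1 and Fabp5 with the previous list. Of 23 tested, 1 passed in limma, 6 had a negative and 1 a positive interaction at an unadjusted p under 0.05, against 3.46% and 4.31% of all genes, and the median was -0.70. Among the other members, Acly, which makes cytosolic acetyl-CoA, had 85 and 90.9 in WT PBS, 154 and 188 in WT HDM, 86.2 and 100.3 in cKO PBS, and 82 and 77.2 in cKO HDM, with an interaction of -1.17 ± 0.44. The desaturase Fads1 had 68.9 and 79.1 in WT PBS, 114 and 99.3 in WT HDM, 101 and 57.1 in cKO PBS, and 31.9 and 58.1 in cKO HDM, with an interaction of -1.32 ± 0.58, and the acyltransferase Gpam had -1.34 ± 0.80. Srebf1, which encodes the lipogenic transcription factor SREBP-1, had 79.6 and 57.3 in WT PBS, 53.5 and 108 in WT HDM, 81.3 and 96.5 in cKO PBS, and 73.3 and 50.7 in cKO HDM, with an interaction of -0.70 ± 0.58 and groups that overlapped. Acss2, the cytosolic acetyl-CoA synthetase, was the positive one, at 2.70 ± 1.21, with 38.5 and 5.16 in WT HDM and 6.51 and 34.3 in cKO PBS. Its interaction was 1.36 without WT HDM replicate 2 and 1.59 without cKO PBS replicate 1, and with either left out no listed gene was positive at an unadjusted p under 0.05. Over the 19 members found on no other list the median was -0.65. With 1 library left out, the median ranged from -1.19 (without WT HDM replicate 1) to -0.70 (without WT HDM replicate 2), and 3 to 8 genes were negative at that level, 3 of them without WT HDM replicate 2 or WT PBS replicate 1. In cholesterol synthesis, 3 of 17 tested genes had a negative interaction at an unadjusted p under 0.05 (3.46% of all genes) and none a positive one, with a median of -0.62. Over the libraries left out that median ranged from -0.65 to -0.32, with 1 to 3 genes negative, and it was -0.32 without WT PBS replicate 1 and -0.41 without cKO HDM replicate 1. The count was 1 without WT HDM replicate 2 or WT PBS replicate 1.

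Ciliated cell genes stood at the positive end of the lists with at least 5 tested genes. Of 32 listed, 31 were tested, and 29 of 31 had a positive interaction, against 56.0% of all tested genes. None passed in limma, and 12 had an unadjusted p under 0.05, where the share over all genes was 4.31%. Their median interaction was 0.83, from -0.65 in WT and 0.11 in cKO. Foxj1, the transcription factor that switches on motile cilium genes, had 550.4 and 534 in WT PBS, 379.5 and 395 in WT HDM, 708 and 485 in cKO PBS, and 809.8 and 682 in cKO HDM, with an interaction of 0.83 ± 0.32 (adjusted p = 0.566 in limma). Its WT HDM libraries were the lowest of the 8. Dnah5, an outer dynein arm motor, had 375 and 446 in WT PBS, 199.6 and 236 in WT HDM, 467 and 363 in cKO PBS, and 449 and 502 in cKO HDM, with an interaction of 1.12 ± 0.33, and Rsph1, a radial spoke protein, had 121 and 105 in WT PBS, 63.9 and 55.4 in WT HDM, 78.1 and 105 in cKO PBS, and 127 and 135 in cKO HDM, with 1.43 ± 0.46. Both were lowest in WT HDM. Tekt1 and Ccdc39, an axonemal tektin and an assembly factor of dynein arms, had 0.09 ± 0.53 and 0.11 ± 0.67, within their own standard errors of 0. The listed genes took 0.804% to 0.822% of reads in WT HDM and 1.33% to 1.52% in the other 6 libraries. With 1 library left out, the list had a median of 0.79 with 6 of 31 at an unadjusted p under 0.05 without WT HDM replicate 2, and of 0.84 with 8 of 31 without cKO PBS replicate 1.

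Club cell genes had a median near 0. Of 20 listed, 19 were tested, and 9 had a negative and 10 a positive interaction, against 44.0% and 56.0% of all tested genes. At an unadjusted p under 0.05, 1 had a negative interaction (3.46% of all genes) and none a positive one. The median was 0.07 (-0.20 to 0.20 with 1 library left out), with a response of -0.32 in WT and -0.33 in cKO. Scgb1a1, the secretoglobin that defines club cells, had 2161 and 2026 in WT PBS, 1545 and 2440.5 in WT HDM, 4213 and 2897 in cKO PBS, and 1589 and 2189 in cKO HDM, with an interaction of -0.80 ± 0.34. Its largest value was in cKO PBS replicate 1, a library that stood apart, and under quantile normalization the interaction was 0.28. For the alveolar type 1 list, 3 of 14 tested genes had a negative interaction at an unadjusted p under 0.05 (3.46% of all genes) and the median was -0.69. It lay between -0.72 and -0.49 over the libraries left out, with 2 to 4 genes at that level. Ager, the receptor RAGE of type 1 cells, had 55.9 and 87.3 in WT PBS, 170.2 and 239.8 in WT HDM, 66.7 and 87.6 in cKO PBS, and 63.1 and 60.6 in cKO HDM, with an interaction of -1.82 ± 0.50. Ager was highest in WT HDM, but the type 1 list was not. The listed genes took 0.885% to 1.01% of reads in WT HDM and 1.16% to 1.43% in the other groups. Of the 14 tested, 10 had a negative and 4 a positive interaction, the largest at 1.29.

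**Figure D3:**
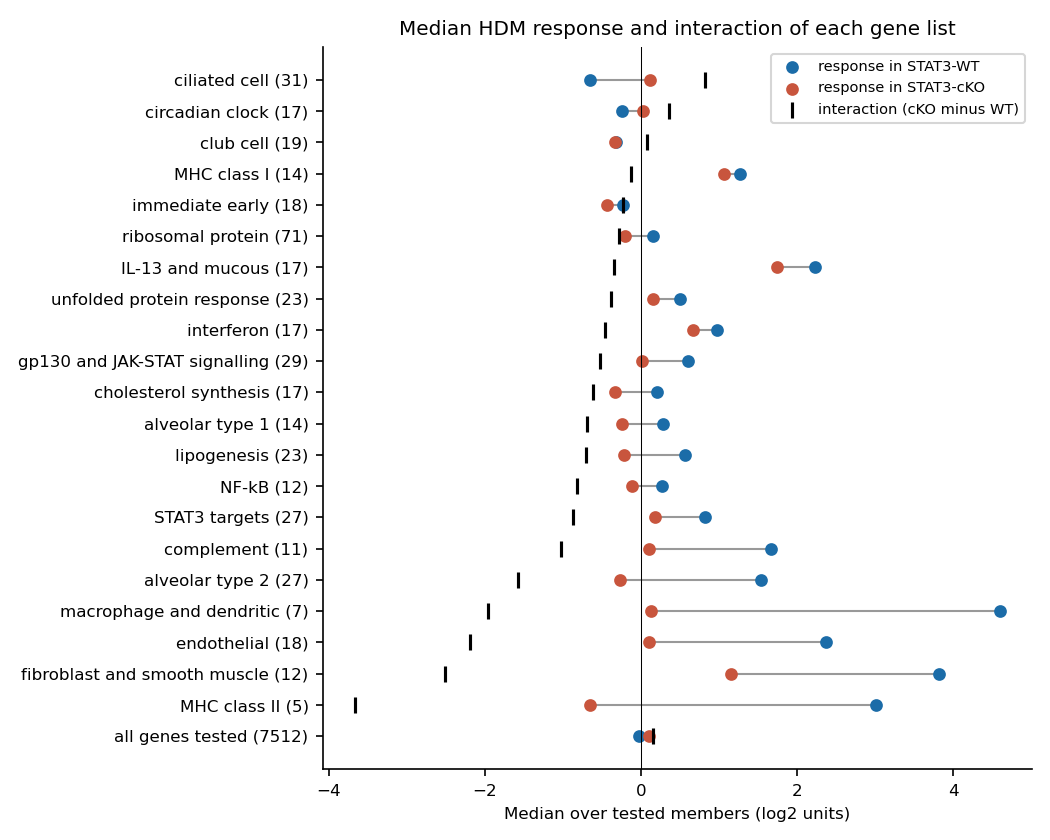
Median log2 HDM response in STAT3-WT and STAT3-cKO (coloured points) and median interaction (bars) over the tested members of each gene list, with the number of members in brackets. Alveolar type 2 genes have median responses of 1.54 and -0.26, ciliated genes -0.65 and 0.11, and the IL-13 and mucous list 2.23 and 1.74.

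**Figure D4:**
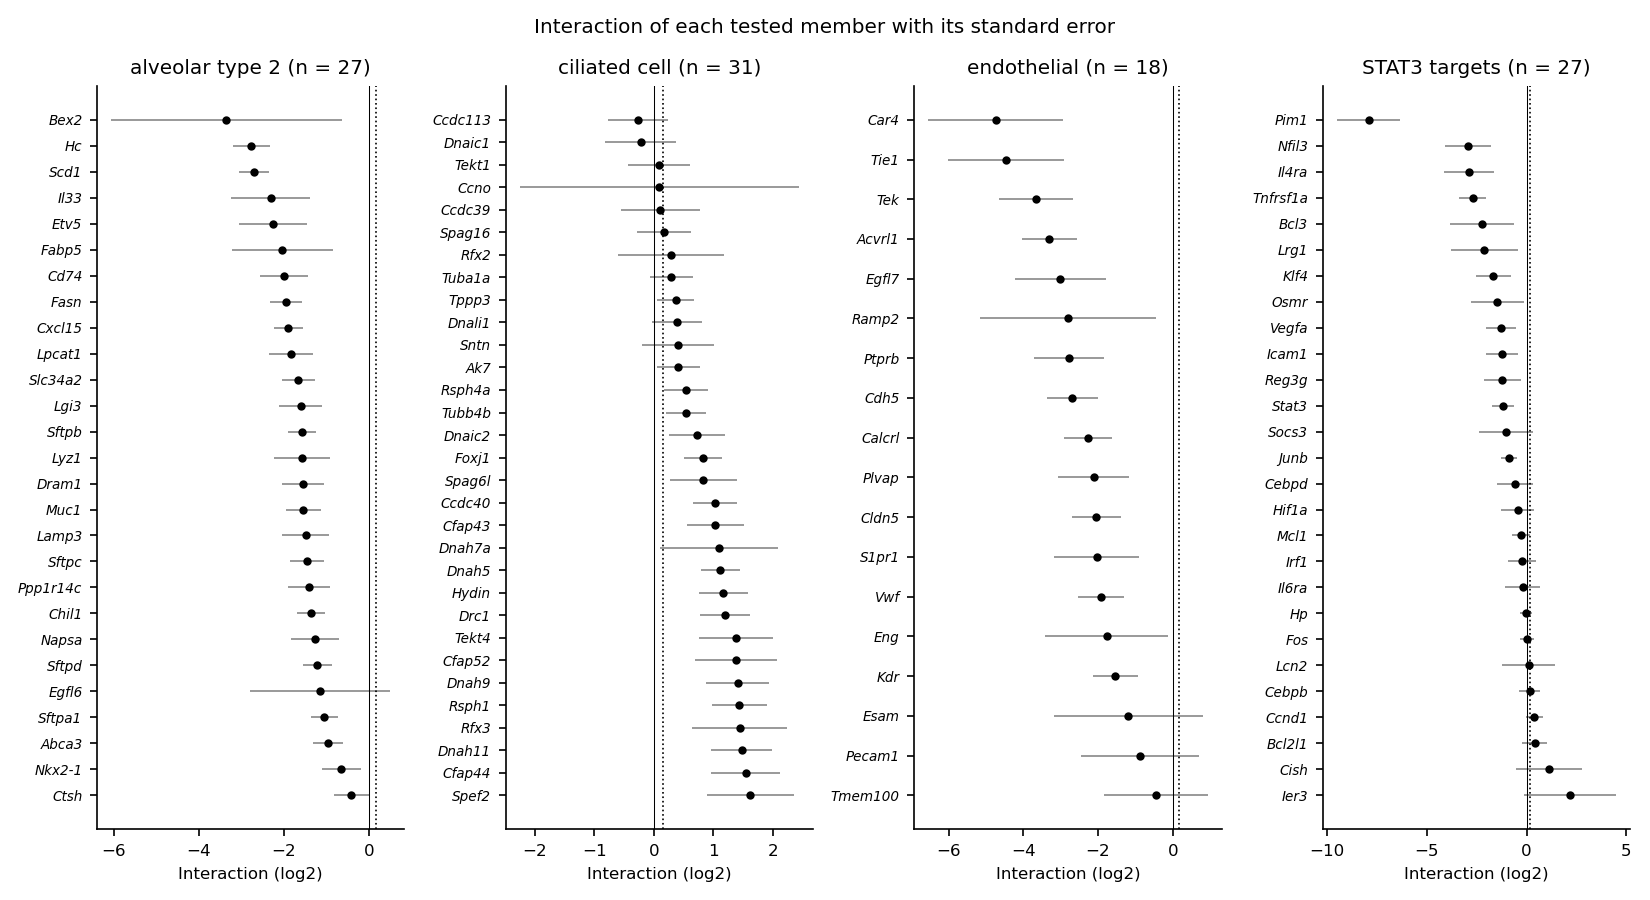
Interaction of each tested member of 4 lists (x axis, log2 units) with its standard error from limma, a solid line at 0 and a dotted line at 0.16, the median of all tested genes. All 27 alveolar type 2 and all 18 endothelial members lie below 0, and 29 of 31 ciliated members lie above it.

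Among known STAT3 targets, 27 of 36 listed were tested and none passed in limma, while Pim1 passed in edgeR and DESeq2. Of the 27, 6 had a negative interaction at an unadjusted p under 0.05 and none a positive one, against 3.46% of all genes on the negative side. Their median was -0.87, from 0.82 in WT and 0.18 in cKO. These counts describe the list only: 6 of the 27, among them 2 of the 6 negative ones, had a mean under 10 over the 3 groups where they were lower, against 10.3% of all genes, and so entered the test through their highest group. Tnfrsf1a, the TNF receptor 1, had 30.6 and 16.4 in WT PBS, 62 and 104 in WT HDM, 63.4 and 50.8 in cKO PBS, and 29.8 and 29.9 in cKO HDM, with an interaction of -2.70 ± 0.68 and the highest values in WT HDM and cKO PBS. Nfil3, a basic leucine zipper repressor, had 15.3 and 6.37 in WT PBS, 22.8 and 27.1 in WT HDM, 19.5 and 25.4 in cKO PBS, and 5.81 and 6.64 in cKO HDM, with -2.93 ± 1.14, and the cKO HDM libraries were at the low end. Il4ra, the receptor chain for IL-4 and IL-13, had 2.3 and 12.7 in WT PBS, 52.2 and 46.4 in WT HDM, 9.76 and 10.2 in cKO PBS, and 8.71 and 11.6 in cKO HDM, so that only the WT HDM libraries were high, and the interaction was -2.88 ± 1.24. Socs3, the feedback inhibitor, had 27.6 and 1.82 in WT PBS, 30.0 and 32.2 in WT HDM, 8.13 and 36.8 in cKO PBS, and 31.9 and 30.7 in cKO HDM and an interaction of -1.04 ± 1.35. Its value rested on 1 library: without WT PBS replicate 2, at 1.82, the interaction of Socs3 was 0.63. Icam1, whose window is printed above, had 75 and 23.6 in WT PBS, 162 and 91.5 in WT HDM, 22.8 and 57.1 in cKO PBS, and 50.1 and 38.2 in cKO HDM, with -1.24 ± 0.80 and overlapping groups; with 1 library left out, the interaction of Icam1 lay between -2.05 and -0.43. Without WT HDM replicate 2 the list median was -0.78 with 2 genes at an unadjusted p under 0.05, and without cKO PBS replicate 1 it was -1.30 with 7. Without WT PBS replicate 2 the median was -0.43. Of the 27 genes, 15 stand on other lists too, and the 12 that do not had a median of -0.36.

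Upstream, receptors and kinases of the gp130 and JAK-STAT pathway gave 3 negative and 2 positive interactions at an unadjusted p under 0.05 among 29 tested genes (3.46% and 4.31% of all genes), with a median of -0.53. There were none in either direction without WT HDM replicate 2, where the median was -0.61, and 3 and 2 without cKO PBS replicate 1, where it was -0.46. In most fits with 1 library left out, no gene of the list was positive at that level, and the median ranged from -0.69 to -0.38. Il6st, which encodes the shared receptor gp130, had 186 and 136 in WT PBS, 222 and 218 in WT HDM, 159 and 128 in cKO PBS, and 144 and 140.4 in cKO HDM and an interaction of -0.47 ± 0.40. Jak1 and Jak2, kinases bound to these receptors, had interactions of -0.28 ± 0.64 and -0.22 ± 0.78. Stat5b, a STAT of growth hormone and interleukin signalling, had -2.42 ± 1.06. On the positive side, Il22ra1, the epithelial IL-22 receptor chain, had 26.8 and 27.3 in WT PBS, 14.3 and 0 in WT HDM, 61.8 and 5.08 in cKO PBS, and 40.6 and 32.4 in cKO HDM with an interaction of 3.77 ± 1.67, and Il13ra1, a chain of the IL-13 receptor, had 130.1 and 120.0 in WT PBS, 64.6 and 43.8 in WT HDM, 127 and 97.8 in cKO PBS, and 90.0 and 105 in cKO HDM with 1.02 ± 0.48. The 2 libraries of a group differed widely for Il22ra1, and its interaction was 1.80 without WT HDM replicate 2, 2.09 without cKO PBS replicate 2, 5.46 without cKO PBS replicate 1 and 5.74 without WT HDM replicate 1.

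The IL-13 and mucous genes had positive median responses in both genotypes. Of 31 listed, 17 were tested. Among them 1 had a negative and 1 a positive interaction at an unadjusted p under 0.05, against 3.46% and 4.31% of all genes, and the median was -0.35, from 2.23 in WT and 1.74 in cKO. Of the 17, 4 entered the test through their highest group, 1 of them the negative one. Leaving out 1 library at a time gave medians of -0.95 to 0.17. The median was above 0 without cKO HDM replicate 1 (0.03), WT PBS replicate 2 (0.17) or cKO PBS replicate 1 (0.08), and without the last 4 genes were negative at that level. Clca1, secreted by goblet cells, had 230.4 and 102 in WT PBS, 1884 and 1104 in WT HDM, 283 and 784 in cKO PBS, and 1565 and 3287 in cKO HDM, a mean 8.99-fold higher with HDM in WT and 4.55-fold higher in cKO. The interaction of Clca1 was -0.96 ± 0.65, with a 95% interval of -2.34 to 0.42 that spans 0, and it ranged from -1.69 to -0.23 with 1 library left out. Muc5ac, the gel-forming mucin, had 26.8 and 1.82 in WT PBS, 62 and 37.4 in WT HDM, 9.76 and 50.8 in cKO PBS, and 31.9 and 103 in cKO HDM, and its interaction was -1.16 ± 1.35 with overlapping groups. Slc26a4, the anion exchanger pendrin, went from 2.3 and 0 to 104 and 148 in WT and from 3.25 and 0 to 21.8 and 4.98 in cKO, with an interaction of -3.60 ± 1.82 (unadjusted p = 0.0655 in limma).

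Among complement genes, 4 of 11 tested had a negative interaction at an unadjusted p under 0.05 (3.46% of all genes), the median was -1.03, and Hc was the one that passed. Of the 11, 4 (36.4%, against 10.3% of all genes) entered the test through their highest group, 1 of them among the negative ones, so the count is a description. It was 2 without WT HDM replicate 2 or cKO HDM replicate 2. C3, the central component, had 286 and 207 in WT PBS, 979.5 and 795 in WT HDM, 264 and 371 in cKO PBS, and 449 and 603 in cKO HDM, with higher means under HDM in both genotypes and an interaction of -1.12 ± 0.37. For MHC class II, the median over 5 tested genes was -3.66, and 4 had an unadjusted p under 0.05. Without WT HDM replicate 2 or cKO PBS replicate 1 the median was -3.16 and -3.37. H2-Aa, a class II alpha chain, had 9.19 and 29.1 in WT PBS, 99.1 and 199 in WT HDM, 32.5 and 21.6 in cKO PBS, and 17.4 and 15.8 in cKO HDM, with an interaction of -3.66 ± 0.85. Cd74, the invariant chain, had 66.6 and 81.8 in WT PBS, 364 and 749 in WT HDM, 42.3 and 88.9 in cKO PBS, and 127 and 93 in cKO HDM, with -1.99 ± 0.57. Alveolar type 2 cells and antigen-presenting leukocytes both make these. Ptprc had reads in both WT HDM libraries and in none of the cKO libraries, and its part in the class II result was not tested.

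Genes of cell types outside the epithelium had some of the most negative interactions. Endothelial genes were all negative (18 of 18 tested, of 26 listed), 12 at an unadjusted p under 0.05, with a median of -2.19, where over all tested genes 44.0% were negative and 3.46% had such a p. Cdh5, the cadherin of endothelial junctions, had 42.1 and 40.0 in WT PBS, 174 and 215 in WT HDM, 92.7 and 29.2 in cKO PBS, and 30.5 and 45.7 in cKO HDM, and Acvrl1, a BMP receptor of these cells, had 23.7 and 26.4 in WT PBS, 137 and 144 in WT HDM, 21.1 and 20.3 in cKO PBS, and 7.98 and 15 in cKO HDM, with interactions of -2.68 ± 0.68 and -3.30 ± 0.74. In the fibroblast and smooth muscle list, 11 of 12 tested genes were negative, 4 at an unadjusted p under 0.05, with a median of -2.51. Col3a1 had 29.1 and 20.9 in WT PBS, 461 and 500.2 in WT HDM, 16.3 and 38.1 in cKO PBS, and 59.5 and 44.9 in cKO HDM, and Bgn had 4.59 and 5.46 in WT PBS, 86.7 and 148 in WT HDM, 14.6 and 7.62 in cKO PBS, and 2.18 and 3.32 in cKO HDM, with interactions of -3.21 ± 0.61 and -5.90 ± 1.23 (limma adjusted p = 0.14 and 0.155, edgeR adjusted p = 0.0206 and 0.0197). Hba-a1 had 6.89 and 4.55 in WT PBS, 69.8 and 147 in WT HDM, 11.4 and 15.2 in cKO PBS, and 2.9 and 0 in cKO HDM and an interaction of -6.80 ± 1.41; it shares near-identical sequence with Hba-a2 and the copies cannot be counted apart with certainty. Lyz2, a lysozyme of macrophages and alveolar type 2 cells, had 357 and 754 in WT PBS, 1112 and 1858 in WT HDM, 444 and 611 in cKO PBS, and 362 and 376 in cKO HDM, with -1.96 ± 0.45. The macrophage markers Csf1r and Cd68 had 16.3 and 43.8, and 4.56 and 6.45, in WT HDM and 0 in the other 6 libraries. Other macrophage markers had reads outside WT HDM. Mrc1 had 24.8 and 45.1 in WT HDM and up to 3.06 elsewhere. Marco had 0.652 and 11.6 in WT HDM and 2.30 in WT PBS replicate 1. Itgax had 2.61 and 9.02 in WT HDM, 4.55 in WT PBS replicate 2, and 0.726 and 0.831 in cKO HDM. These lists passed the level filter partly through the group where they were high: 7 of 18 endothelial and 6 of 12 fibroblast genes had a mean under 10 over the other 3 groups, against 10.3% of all genes tested. They hold 3 of the 12 endothelial and 2 of the 4 fibroblast genes counted at an unadjusted p under 0.05, so these counts and medians are descriptions. With cKO PBS replicate 2 left out, 16 of 18 endothelial genes were negative, with a median of -2.42. The endothelial median was -2.15 without WT HDM replicate 2 and -2.45 without cKO PBS replicate 1, and 8 genes were counted without cKO HDM replicate 1 or without replicate 2. For the fibroblast list the medians without the same libraries were -2.58 and -3.19, with 3 and 7 genes counted. It was -1.61 without cKO PBS replicate 2, with 9 of 12 negative and 1 gene positive at that level, and 2 genes were counted without WT HDM replicate 1.

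**Figure D5:**
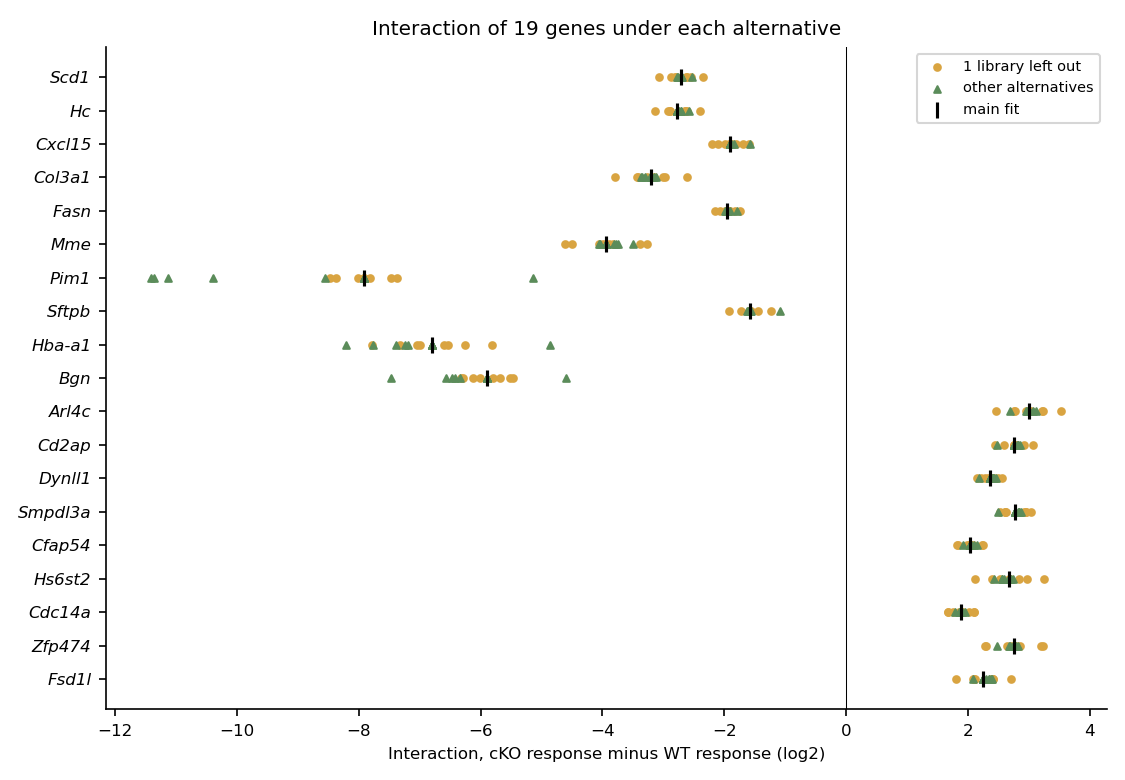
Interaction (x axis, log2 units) of the 10 negative and 9 positive genes of smallest p under the main fit (bar), with 1 library left out (circles) and under the other alternatives (triangles). No value crosses 0 for these 19 genes, with Scd1 between -3.07 and -2.35 over the libraries left out, and Pim1, with 0 reads in cKO HDM, moving most.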

How the data were processed

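RNA was sequenced from cells sorted from lung, extracted with TRIzol and made into libraries from 1 ng with the NEBNext Ultra II Directional kit, per the labels' protocols. The deposited values are a normalized count signal, 1 column per library. The tools listed are HOMER and DESeq2, and the genome build is mm10, per the submitters' processing notes. Not given in the sources used here are the aligner, the annotation, any removal of duplicate reads and the use of strand in counting, so reads of overlapping or antisense genes cannot be told apart.

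Every value was a whole multiple of the value of 1 read in its library (100% within 0.01 reads), which gave the recovered reads, 232556 to 593200 per library. A gene at 0 reads allows up to 3 reads, 1.96 to 4.88 normalized counts, for counting error only. Values were analysed as log2(value + 1), which understates changes of low genes. The model in limma 3.58.1 (R 4.3.3, eBayes with a trend) had 1 mean for each group and used all 8 libraries, with two-sided tests and Benjamini-Hochberg adjustment over the 7512 genes tested. Errors after ± are standard errors on log2 values and standard deviations on normalized counts. edgeR 4.0.16 (quasi-likelihood, TMM) and DESeq2 1.42.0 were run on the recovered reads as alternatives, calling 7 and 27 genes. Data were simulated for the interaction over 7512 genes, with 50 changed at each size. The recovery by limma was 2% for changes of 2-fold, 26% at 4-fold, 52% at 8-fold and 74% at 16-fold, and 2 of its 79 calls were false. Changes were placed only in cKO HDM and only in genes with a higher minimum mean than the level filter. Recovery among the lowest tested genes was therefore not measured.

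The members and the 26 gene lists were chosen with earlier results of these data known. Named are genes that passed, then those of smallest p to 10 in each direction, 3 members of each list with at least 5 tested genes, 10 genes followed throughout, and genes called by edgeR or DESeq2, without predicted and clone-named genes. Some genes that these rules name are not reported here. Other list members named were chosen after their values were seen. No lymphocyte or mitochondrially encoded gene on the lists was tested. The other alternatives were the pseudocount, the level filter, the scaling, the variance model, library weights, a replicate block and each library left out. Taken over all tested genes, samples with the same replicate number did not deviate together, which does not exclude a pairing in some genes.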

Additional observations from a re-analysis of the deposited data

Results flagged for a closer look

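The HDM response of Hc differed between the genotypes in the interaction test of limma, with an interaction of -2.77 (adjusted p = 0.0386): the mean was 5.32-fold higher with HDM in the wild type and 1.26-fold lower in the knockout. For Scd1 the same test gave -2.71 (adjusted p = 0.00828), with a mean 3.79-fold higher in the wild type and 1.77-fold lower in the knockout.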

How the results depend on the processing

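The count of 2 genes with a negative interaction fell to 0 with a pseudocount of 0.2, with no filter on low values and without a variance trend. It was 12 with a pseudocount of 5, 9 with a minimum mean of 50 or with quantile normalization, 7 in edgeR with TMM, 8 in edgeR with the authors' scaling and 26 in DESeq2. The count of positive interactions was 0 except in DESeq2, which called 1 gene, Pik3ip1. With 1 library left out, the counts ranged from 0 to 24 for negative and from 0 to 91 for positive interactions. They were 10 and 9 without cKO PBS replicate 1 and 24 and 91 without cKO PBS replicate 2, 1 and 0 without cKO HDM replicate 2, and 0 and 0 without any of the other 5. Where a group keeps 1 library, that library is assumed to vary like the others. With the replicate number as a block, 3 genes were negative (Scd1, Hc and Cxcl15) and 0 positive. The correlations of same-numbered deviations over all tested genes lay between -0.016 and 0.018 over the 6 pairs of groups. Most tested genes have low counts, so these values cannot exclude a pairing that acts on some genes. What the replicate numbers mark is not stated. Reversed values were 0.28 for Scgb1a1 (-0.80 in the reported fit) under quantile normalization, and, with 1 library left out, ranges of -2.71 to 0.63 for Socs3, -2.81 to 0.49 for Muc5ac and -0.43 to 0.10 for Epcam; the cause was not tested. Of 90 genes picked by the naming rules, 25 moved by over 1.5 times or changed sign with some library left out, 3 of them in sign. The median interaction of all tested genes, 0.16, moved by -0.12 with a minimum mean of 50 and in edgeR with the authors' scaling, and by -0.13 in DESeq2. Among the other alternatives for named genes, 1060 values kept direction and side of the threshold, 62 newly passed and 6 no longer passed. At 2 libraries a group and these depths, few changes under 4-fold could have passed.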

Other observations

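Genes of the circadian clock had interactions of both signs. Of 17 tested, 2 had a negative and 4 a positive interaction at an unadjusted p under 0.05 (3.46% and 4.31% of all tested genes), none passed in limma, and the median was 0.36. Per2, a repressor of the clock, had 41.3 and 25.5 in WT PBS, 7.17 and 10.3 in WT HDM, 30.9 and 7.62 in cKO PBS, and 51.5 and 53.2 in cKO HDM, with an interaction of 3.48 ± 0.99. Tef, an output factor of the PAR family, had 77.3 and 55.5 in WT PBS, 30.0 and 24.5 in WT HDM, 104 and 67.3 in cKO PBS, and 163 and 115 in cKO HDM, with 1.95 ± 0.56, and Dbp of the same family had 3.83 and 24.6 in WT PBS, 8.48 and 0 in WT HDM, 26 and 3.81 in cKO PBS, and 76.9 and 43.2 in cKO HDM, with 4.21 ± 1.75. The 2 negative ones were Bhlhe40, at -2.27 ± 0.78, and Nfil3, at -2.93 ± 1.14. The mean of Bhlhe40 was 4.80-fold higher with HDM in WT and 1.05-fold higher in cKO. Arntl and Npas2, partners in the activating complex, had -2.39 ± 1.25 and -2.36 ± 1.12 and did not reach that level. The cKO HDM libraries were low for both: 1.45 and 9.97 for Arntl and 2.18 and 6.64 for Npas2. Without WT HDM replicate 2 the counts were 1 and 3, and without cKO PBS replicate 1 they were 5 and 4. Over all 8 libraries left out in turn, the median ranged from -0.05 to 0.59. The time of day of sampling is not stated.

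Protein folding genes of the endoplasmic reticulum had 2 negative and 0 positive interactions at an unadjusted p under 0.05 among 23 tested (3.46% and 4.31% of all genes). Calr, a lectin chaperone, had 253 and 206 in WT PBS, 508 and 404 in WT HDM, 335 and 334 in cKO PBS, and 323 and 349 in cKO HDM, with -0.98 ± 0.33, and Hspa5, the chaperone BiP, had 348 and 251 in WT PBS, 559 and 678 in WT HDM, 409.9 and 417 in cKO PBS, and 493 and 503 in cKO HDM, with -0.79 ± 0.32. Dnajb9, a co-chaperone of BiP, had a positive interaction of 3.06 ± 1.44 (unadjusted p = 0.0503 in limma), which was 2.91 without WT HDM replicate 2, 4.51 without cKO PBS replicate 1 and 1.61 without cKO PBS replicate 2. The median of the list was -0.38, and -0.39 to -0.18 with 1 library left out, with 1 to 5 genes negative. Among 71 ribosomal protein genes, 1 had an unadjusted p under 0.05, and the median was -0.28 (-0.55 to -0.18 with 1 library left out, with 0 to 9 genes negative at that level). For 17 interferon-induced genes the count was 0 in both directions and the median -0.47 (-0.72 to 0.0022 with 1 library left out). Il33, an alarmin, had 8.42 and 20.9 in WT PBS, 104 and 162 in WT HDM, 11.4 and 6.35 in cKO PBS, and 20.3 and 13.3 in cKO HDM, with an interaction of -2.32 ± 0.93 (adjusted p = 0.589 in limma) and WT HDM above all other libraries.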
